A study of Mus musculus with 6 samples.

Results

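Paneth cells sit at the base of the small-intestinal crypts, between the stem cells, and release granules rich in alpha-defensins (called cryptdins in mice), lysozyme and other antimicrobial proteins. They also present growth signals such as Wnt3, Egf and the Notch ligand Dll4 to the neighbouring stem cells. They arise from the secretory lineage that also gives the mucus-making goblet cells, and Wnt signalling in the crypt drives their maturation and many of their granule genes.

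Paneth cells were picked out here by their transcripts. A barcode, which stands for the contents of 1 droplet, was kept with at least 500 detected genes and at most 25% of its UMIs from mitochondrially encoded genes (a UMI tags 1 captured RNA molecule). A kept barcode was called a Paneth cell when at least 10% of its UMIs came from the 13 genes whose symbols start with Defa plus Lyz1, the lysozyme of Paneth cells. This rule found 324 of 26045 kept barcodes (1.24%) out of 26153 in all. The share of these 14 genes therefore chose the cells, and every difference in expression between them and other cells is given as a description, without a test.

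The libraries came from small-intestinal epithelium of C57BL/6J mice aged 8 weeks and were made with a 10x Genomics 3' kit. In all, 3 libraries carried the genotype label Itgb7-/- (titled Itgb7 KO) and 3 carried the wild-type label (WT). Itgb7 encodes the β7 integrin subunit, which T cells of the epithelium pair with the αE subunit to bind E-cadherin, and the series title asks how such T cells bear on stem cell fate. The labels tie no library to an animal and do not say whether animals were pooled, so each p-value sets a difference against library-to-library spread, part or all of which may be technical.

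Libraries labelled Itgb7 KO held 62224718, 57949476 and 28475253 UMIs in replicates 1, 2 and 3, and WT libraries held 76133693, 63316811 and 63647862. The smallest UMI total of a deposited barcode was 7754, 2729 and 1417 in the libraries labelled Itgb7 KO and 13621, 2946 and 2651 in WT, so the lower limits on barcodes differed before deposit. Itgb7 had 18, 33 and 12 UMIs among the other kept barcodes of the libraries labelled Itgb7 KO, against 3, 8 and 2 UMIs in WT. This direction went against the genotype label, and whether the counted part of the transcript lies within the deletion is not given in the sources used here, so each direction below rests on the labels alone. No Itgb7 UMI was found in Paneth cells of any library; a count of 0 (limit of 3 UMIs per library, counting error only) allows up to 0.542, 6.08 and 19.4 counts per 1000000 UMIs (CPM) in the libraries labelled Itgb7 KO and 0.276, 8.94 and 6.65 CPM in WT.

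The alpha-defensin genes lie in tandem on chromosome 8 (GRCm38), and their copies share both transcript and promoter sequence. This bears on the counts: of the 100-base windows in the last 400 bases of each transcript, where 3' reads fall, 100% were found in no other gene's transcript for Defa24, 63.1% for Defa21, 63.5% for Defa22, 9.40% for Defa17 and 0.332% for Defa20. Counts of Defa17, Defa20, Gm14850, Gm21002 and Gm15308 may thus be split between near-identical copies. Several cryptdin genes carry Gm or AY symbols in the files and fell outside the rule by name. GENCODE M21 names Gm15284 as Defa30, Gm14850 as Defa37, Gm15308 as Defa32, Gm21002 as Defa33 and Gm6696 as Defa28, and all 15 such cryptdin-like genes lie in the same cluster.

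The promoters of Defa21 and Defa20 are shown because they were 97.7% identical over 300 bases (250 before to 50 after the start), while the genes' shares differed between Paneth cells of different libraries, as given below. Defa22 had the same 300 bases as Defa21. Both sequences are from RefSeq (GRCm38.p6, plus strand, chr8:21025295-21025594 for Defa21 and chr8:21509008-21509307 for Defa20), read 5′ to 3′, and capitals mark ATCAAAG or its reverse complement CTTTGAT, the core motif of TCF factors, through which Wnt signals act:
Defa21: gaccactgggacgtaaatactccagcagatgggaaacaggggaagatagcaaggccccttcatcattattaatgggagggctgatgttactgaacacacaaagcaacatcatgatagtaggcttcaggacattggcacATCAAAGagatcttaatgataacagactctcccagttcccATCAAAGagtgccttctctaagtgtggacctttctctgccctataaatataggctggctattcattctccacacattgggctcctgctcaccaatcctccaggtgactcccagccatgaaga
Defa20: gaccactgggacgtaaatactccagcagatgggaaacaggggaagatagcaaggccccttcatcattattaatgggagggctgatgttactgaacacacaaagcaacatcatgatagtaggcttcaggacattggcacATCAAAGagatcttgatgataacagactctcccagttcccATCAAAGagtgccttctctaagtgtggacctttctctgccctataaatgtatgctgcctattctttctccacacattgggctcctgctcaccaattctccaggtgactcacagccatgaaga
The letters ATCAAAG, on either strand, were present in 12 of 12 alpha-defensin promoters matched by symbol, against 1225 of 32851 promoters of all genes in the table (3.73%). Defa24, with the most Paneth cell UMIs of these genes (3060484), had no matched promoter, and nor did Defa17, AY761184 and Gm21002, among others. The 12 did include Defa2, Defa-rs7 and Gm21498, counted at 1, 11 and 2 UMIs in all Paneth cells. Their transcripts had 0% unique windows, so whether these copies were silent cannot be told. All 12 held the letters, so the letters cannot tell copies with high counts from copies with low counts here. The 2 start windows of Mmp7 overlap, and both held the same single site with these letters. The windows of Lyz1, Itln1, Mptx2 and Ang4 did not hold them. Since the 12 promoters are copies of each other, they do not count as 12 separate observations. The Gm15284 (Defa30) promoter (chr8:21134400-21134699, plus strand) was 66.7% identical to that of Defa21 and is shown because Gm15284 had the most UMIs among the cryptdin-like genes:
Gm15284: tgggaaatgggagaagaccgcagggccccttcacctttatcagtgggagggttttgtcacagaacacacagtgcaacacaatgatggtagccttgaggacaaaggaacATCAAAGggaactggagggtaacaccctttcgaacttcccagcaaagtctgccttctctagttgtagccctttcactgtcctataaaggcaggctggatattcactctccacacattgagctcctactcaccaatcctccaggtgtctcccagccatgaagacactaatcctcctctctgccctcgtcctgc

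Paneth cells were unevenly spread over the libraries. Those labelled Itgb7 KO held 92, 37 and 22 of them, against 124, 19 and 30 in WT, so that 216 of 324 (66.7%) came from the 2 replicate 1 libraries, which also held 91.9% of all Paneth cell UMIs. As a share of kept barcodes, Paneth cells made up 3.30% (exact 95% binomial interval 2.67 to 4.03), 0.646% (0.455 to 0.889) and 0.482% (0.302 to 0.729) in replicates 1, 2 and 3 of the libraries labelled Itgb7 KO. In WT they made up 4.47% (3.73 to 5.31), 0.376% (0.227 to 0.587) and 0.584% (0.394 to 0.832). With both replicate 1 libraries left out, the difference between libraries labelled Itgb7 KO and WT was 0.0836 percentage points, and without WT replicate 1 it was 0.994. The group means were 1.47% ± 1.58 in libraries labelled Itgb7 KO and 1.81% ± 2.31 in WT (SD, n = 3 each), and the groups overlapped. Their difference of -0.336 percentage points was smaller than the spread between libraries (exact 2-sided permutation test, p = 0.9; the smallest p that 3 against 3 libraries can give is 0.1). Within replicate numbers, the libraries labelled Itgb7 KO differed from WT by -1.18, 0.269 and -0.102 percentage points.

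**Figure D1:**
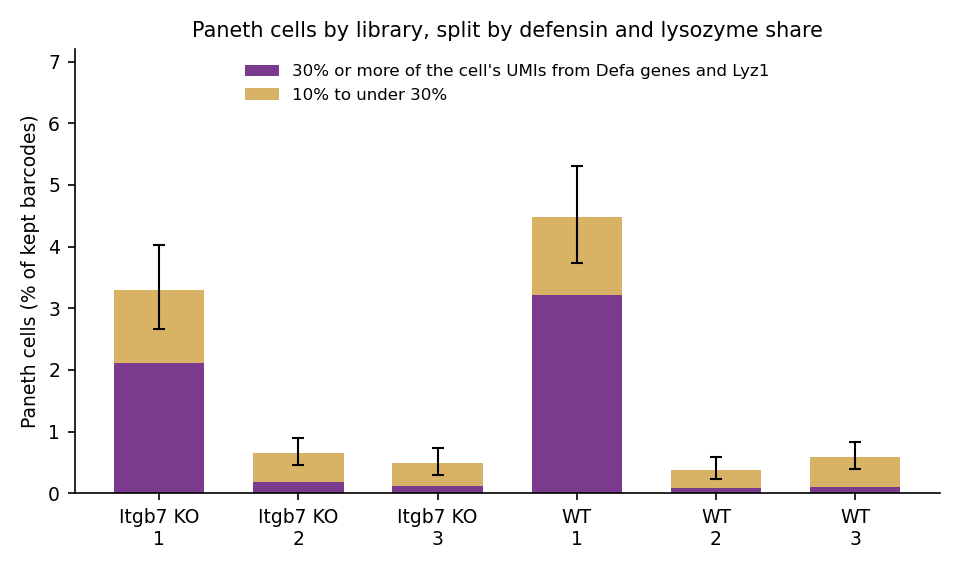
Paneth cells as a percentage of kept barcodes in each library, split into cells with 30% or more and with 10% to under 30% of their UMIs from Defa genes and Lyz1; error bars are exact 95% binomial intervals of the total and cover counting error only. Replicate 1 stands at 3.30% (Itgb7 KO) and 4.47% (WT), and the other 4 libraries lie between 0.376% and 0.646%.

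The lower limits on barcodes touch these shares, since Paneth cells of replicate 1 were rich in UMIs. With all libraries held to at least 13621 UMIs per barcode, Paneth cells made up 3.57%, 1.30% and 0% in replicates 1, 2 and 3 labelled Itgb7 KO (the last with 0 of only 37 barcodes) and 4.47%, 0.512% and 0.773% in WT. Replicate 1 thus stayed above the others in both groups at a matched minimum. No barcode sequence of a Paneth cell occurred in a Paneth cell of another library, and 4 of the 324 (1 in Itgb7 KO replicate 1 and 3 in WT replicate 1) were among the barcodes with the highest doublet scores.

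The Paneth identity of the cells was checked on markers outside the rule. Of 22 such markers, 15 were higher in Paneth cells than in the other kept barcodes of all 6 libraries, 1 was lower in all 6, and Ang6 had no UMI. For these comparisons, levels are in CPM (counts scaled to a total of 1000000) of the UMIs outside the 14 rule genes, and since a 3' UMI counts a molecule once, levels were not divided by length. Cryptdin-like genes stayed in this total, and 14 of them took 47448 to 450348 CPM in Paneth cells and 52.0 to 3600 CPM in other barcodes. A large share of this kind lowers the level of every other gene on this scale. The summed level of the 22 markers was 81653, 28041 and 22760 CPM in Paneth cells of the libraries labelled Itgb7 KO and 75395, 34370 and 25690 CPM in those of WT, against 412 to 1591 CPM in the other barcodes. The lectin Itln1 averaged 26861 ± 12701 CPM in Paneth cells and 419 CPM in other barcodes, and the protease Mmp7, which cuts pro-cryptdins into their active form in mice, averaged 3282 ± 607 CPM and 107 CPM (SD, n = 6 libraries). Pancreatic-type colipase Clps, the lipase relative Pnliprp2, the ribonucleases Ang4 and Rnase1, and the lectin Reg4 stood 24.3 to 100-fold above other barcodes. Rule genes made up 0.0876% to 0.829% of UMIs in other barcodes, a level at which free RNA and expression cannot be told apart.

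Among the 15 genes that stood out most against other barcodes, 13 were cryptdin-like genes, and the remaining 2 were Mptx2, a mucosal pentraxin, and Pnliprp2. In all, 220 of 19400 genes (1.13%) were higher in Paneth cells in 6 of 6 libraries and 7451 (38.4%) were lower. A gene at a low level can also count as lower by having no UMI in the smaller Paneth cell sums. With a mean of at least 50 CPM in the higher set, 111 genes were higher and 2068 lower in 6 of 6 libraries. The lowest among genes with at least 50 CPM in other barcodes were Cd302, Amica1, Tm4sf20, 2810417H13Rik, Hist1h2ap and Gpd2, at 0.0916 to 0.127 of the level in other barcodes. All 20 proliferation markers were lower in Paneth cells of every library, as were 21 of 22 enterocyte markers and 11 of 17 glycolysis genes. Mitochondrial UMIs were also few, with library medians of 0.842% to 2.22% in Paneth cells and 3.46% to 5.09% in other barcodes.

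Signals of the stem cell niche were present at low levels. Wnt3 stood at 42.0, 78.7 and 24.9 CPM in Paneth cells of the libraries labelled Itgb7 KO and at 39.5, 54.6 and 81.6 CPM in those of WT, against 4.0 to 7.1 CPM in other barcodes. Egf averaged 9.46 ± 5.22 CPM in Paneth cells and 0.907 CPM in other barcodes, and was higher in 6 of 6 libraries, whereas Dll4 (19.3 ± 15.6 and 6.98 CPM) was higher in 4 of 6 (SD, n = 6 libraries) and stood at 22.7 to 27.3 CPM in goblet barcodes. These levels rest on few UMIs in the smaller libraries: in Itgb7 KO replicate 3, Egf had 1 UMI and Wnt3 had 3. Of the 16 niche signals, 3 were higher in Paneth cells than in other barcodes of all 6 libraries and 5 were lower in all 6. The Wnt inhibitor Notum and the cyclic ADP-ribose enzyme Bst1 were near 0 in Paneth cells, at 0.104 and 0.182 CPM. Ephb3, the receptor that holds Paneth cells at the crypt base in mice, averaged 32.4 CPM in Paneth cells, 4.38-fold above other barcodes. The zinc transporter Slc30a2, which loads Paneth granules in mice, averaged 21.7 CPM, 3.23-fold above. The innate sensor Nod2 averaged 0.0778 CPM and Lrrk2 had no UMI in any Paneth cell.

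Markers of other cell types were looked for in the same sums. T cell markers summed to at most 9 CPM in Paneth cells of any library, B and plasma cell markers to at most 8 CPM, and stroma and endothelium markers to at most 3 CPM, and 5, 6 and 9 of the list members had no UMI. Myeloid markers summed to 23 to 44 CPM, against 3 to 5 CPM in other barcodes. Most of that was Lyz2 (23.8 ± 9.52 CPM, SD, n = 6 libraries), the near copy of Lyz1 whose reads may be shared with it, while C1qb, C1qc, Itgax, Adgre1, S100a8 and S100a9 were at 0. Goblet markers were abundant instead: their 14 genes summed to 54994, 201988 and 213792 CPM in Paneth cells of the libraries labelled Itgb7 KO and to 49216, 142624 and 178267 CPM in those of WT. In goblet barcodes (at least 1% of UMIs from 5 mucus genes, and not Paneth cells; 5006 in all) these markers summed to 116567 to 143440 CPM. Part of the selected cells therefore carried both Paneth and goblet transcripts, and the part of mixed droplets and free RNA in this was not tested beyond the doublet score.

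Paneth cells fell along a range of defensin content, which is divided here at 30%. This boundary was chosen after the values were seen and marks a range, not a cell type: 39 of the 324 cells lay between 25% and 35%. Under 30% lay 33, 27 and 17 cells of the libraries labelled Itgb7 KO and 35, 15 and 25 of WT. At 30% or more lay 59, 10 and 5 cells labelled Itgb7 KO and 89, 4 and 5 of WT, so that 148 of these 172 cells came from replicate 1. The cells at 30% or more are called rich cells below, and their median UMI count was the higher one in each library. It was 77231, 21614 and 9445 at 30% or more and 16830, 10048 and 6972 below in replicates 1, 2 and 3 labelled Itgb7 KO, and 103031, 24898 and 31269 at 30% or more and 22772, 12481 and 11529 below in WT. The gap was widest in replicate 1 and narrow in Itgb7 KO replicate 3, where 2 of 5 rich cells (3896 and 4229 UMIs) lay under the median of the cells below 30%. Other barcodes of the replicate 1 libraries had medians of 19414 UMIs labelled Itgb7 KO and 22196 in WT.

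**Figure D2:**
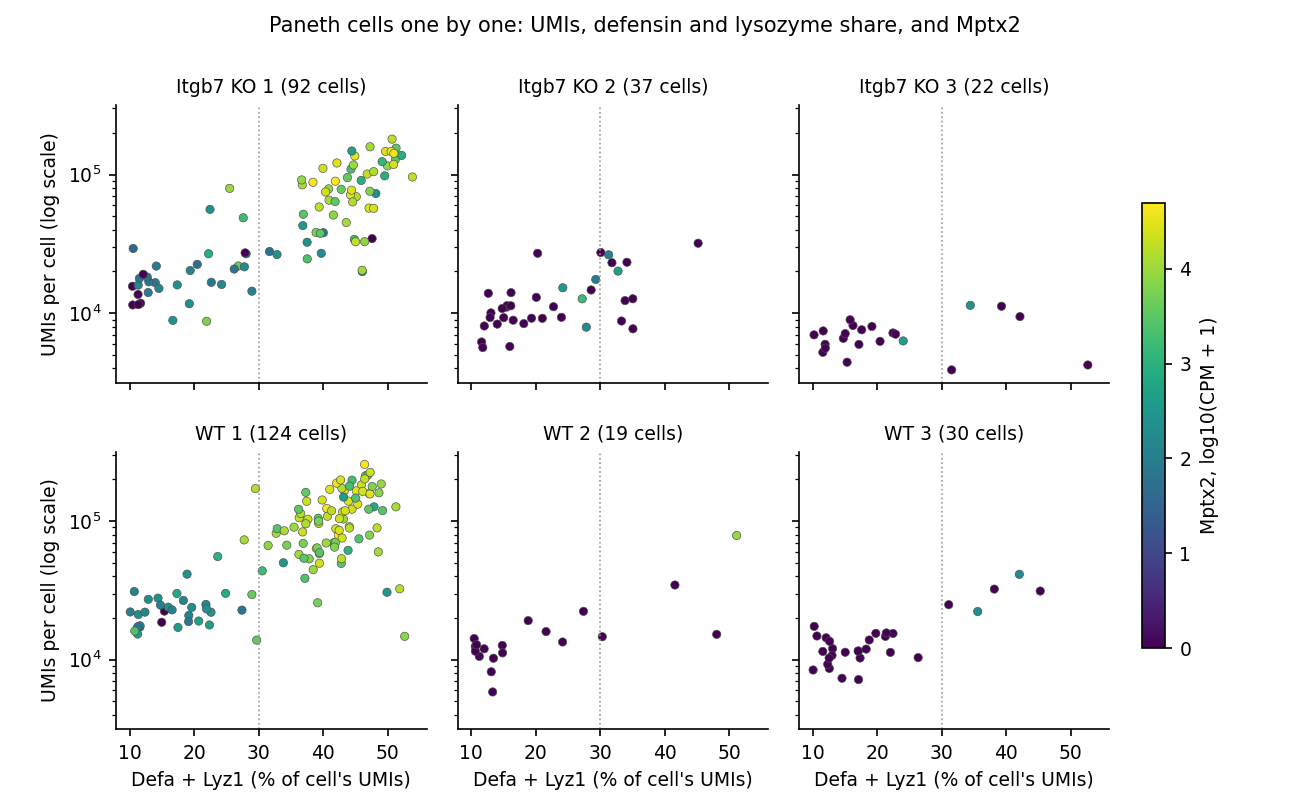
Each point is 1 Paneth cell, with the percentage of its UMIs from Defa genes and Lyz1 on the horizontal axis, its UMI count on a log vertical axis and its Mptx2 level, log10(CPM + 1) of UMIs outside the rule genes, as colour; the dotted line stands at 30%. The cells with the most UMIs lie in the 2 replicate 1 libraries and most of them are high in Mptx2; among the other 4 libraries the highest is a cell of WT replicate 2 with 78713 UMIs.

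The make-up of the summed granule transcripts differed between these ranges. Below 30%, Defa24 took 68.9%, 70.3% and 77.4% of the Defa and Lyz1 UMIs in replicates 1, 2 and 3 labelled Itgb7 KO and 66.9%, 70.6% and 75.5% in WT. At 30% or more it took 39.4%, 49.8% and 57.1% labelled Itgb7 KO and 41.3%, 47.0% and 43.8% in WT. Defa20 had a larger share of the summed UMIs at 30% or more in every library. It took 22.1%, 17.1% and 14.4% of these UMIs at 30% or more labelled Itgb7 KO and 18.8%, 22.6% and 27.5% in WT, against 5.27%, 5.18% and 0.01% below labelled Itgb7 KO and 5.26%, 3.91% and 1.62% in WT. These sums rest on part of the cells: in cells at 30% to 40%, the median share of Defa20 was 10.8% in Itgb7 KO replicate 1 and 0.557% (0 to 38.5%) over 12 cells of Itgb7 KO replicates 2 and 3, and 3.12% in WT replicate 1 and 18.7% over 4 cells of WT replicates 2 and 3.

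Defa21 and Defa22, whose promoters are shown above with that of Defa20, behaved otherwise. At 30% or more, Defa21 took 8.46%, 0.87% and 0.99% of the Defa and Lyz1 UMIs in replicates 1, 2 and 3 labelled Itgb7 KO and 9.99%, 3.06% and 0.07% in WT. Defa22 took 9.35%, 1.44% and 0.34% labelled Itgb7 KO and 9.83%, 2.21% and 1.18% in WT. The rich cells of replicate 1 lay mostly at 40% or more and those of the other libraries labelled Itgb7 KO mostly at 30% to 40%, so medians over cells are given within these ranges. At 40% or more, the median share of Defa21 was 6.14% over 45 cells of Itgb7 KO replicate 1 and 3.57% over 3 cells of Itgb7 KO replicates 2 and 3, and 10.3% over 57 cells of WT replicate 1 and 0.00696% over 5 cells of WT replicates 2 and 3. The median share of Defa20 in the same cells was 24.7% and 17.6% labelled Itgb7 KO and 22.8% and 20.1% in WT. At 30% to 40%, the median share of Defa21 was 0.741% over 14 cells of Itgb7 KO replicate 1 and 0 over 12 cells of replicates 2 and 3, and 1.56% over 32 cells of WT replicate 1 and 0.0900% over 4 cells of replicates 2 and 3. Much of the pooled contrast in Defa21 thus came from cells at 40% or more, which were few outside replicate 1. In the cells below 30% of replicate 1, Defa21 took 1.136% (Itgb7 KO) and 0.9973% (WT), less than its 5.21% and 7.89% of the traces of these genes in other barcodes of the same libraries. The part of free RNA in that level was not tested.

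**Figure D3:**
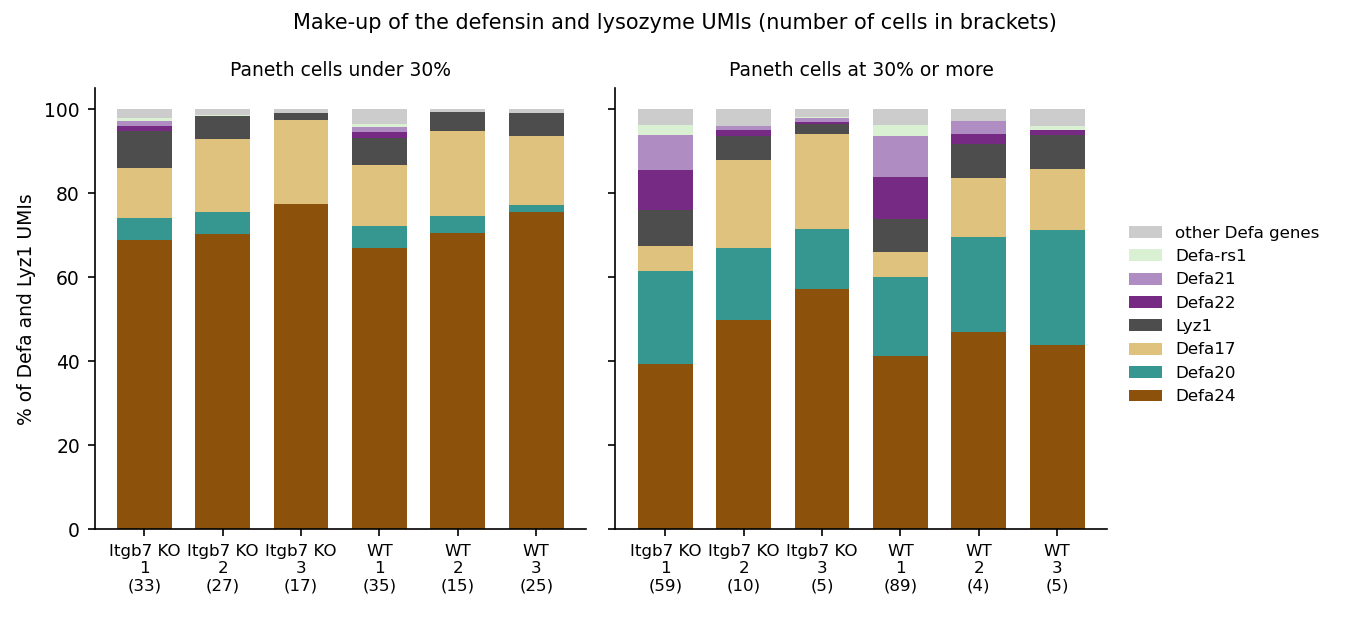
Stacked bars give the percentage of summed Defa and Lyz1 UMIs from each gene in Paneth cells under 30% (left) and at 30% or more (right), by library, with the number of cells in brackets. Defa24 leads everywhere, Defa20 widens at 30% or more in all 6 libraries, and Defa21 with Defa22 is widest in the rich cells of both replicate 1 libraries.

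Outside the rule genes, the rich cells of replicate 1 stood above those of every other library for Mptx2, Ang4 and Gm14851. Ang4 stood at 14216, 987 and 123 CPM in rich cells labelled Itgb7 KO and at 11399, 3987 and 767 CPM in those of WT. Mptx2 stood at 14348 CPM in the rich cells of Itgb7 KO replicate 1 and at 15164 CPM in those of WT replicate 1. In the rich cells of the other libraries it stood at 63.2 and 81.9 CPM labelled Itgb7 KO and at 4286 and 75.6 CPM in WT, where 329 UMIs of replicate 2 all came from 1 cell. In other barcodes it lay between 0.14 and 112 CPM, with the higher values in replicate 1. Gm14851, a cryptdin-like gene, stood at 51868 and 59121 CPM in the rich cells of replicate 1 labelled Itgb7 KO and WT, against 1508 and 82 CPM in replicates 2 and 3 labelled Itgb7 KO and 6827 and 5544 CPM in those of WT. Gm15308, Gm21002 and AY761184, by contrast, were abundant in the rich cells of all 6 libraries, from 43993 to 107012 CPM, from 23225 to 55430 CPM and from 52090 to 76630 CPM. Gm15284 lay between these patterns, at 144438, 26835 and 3891 CPM in rich cells labelled Itgb7 KO and at 146889, 118737 and 18340 CPM in those of WT. The cluster thus held symbols counted in rich cells everywhere and symbols counted mainly in replicate 1. Gm15308 and Gm21002 had 0.332% and 0% unique windows, so their counts cannot be tied to 1 copy. AY761184 had 100%, Gm15284 99.7% and Gm14851 82.1%. Single cells carried part of these sums. In WT replicate 2, the cell with 78713 UMIs had 5.04% of its Defa and Lyz1 UMIs from Defa21, against at most 0.007% in the other rich cells of that library. Over the 5 cells at 40% or more of WT replicates 2 and 3, Gm15284 had a median of 11127 CPM and a highest value of 168408 CPM, and Ang4 had a median of 760 CPM and a highest value of 7048 CPM. The median Mptx2 level was 0 in rich cells of replicates 2 and 3 in both groups, at 30% to 40% as at 40% or more.

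Several goblet transcripts were lower in the rich cells. The 14 goblet markers summed to 37153, 177184 and 226109 CPM in rich cells labelled Itgb7 KO and to 33706, 100406 and 115830 CPM in those of WT, against 137084, 214980 and 210655 CPM below 30% labelled Itgb7 KO and 155567, 162718 and 201318 CPM in WT, so the sum was lower in rich cells of 5 libraries and higher in Itgb7 KO replicate 3. Muc2, the main gel-forming mucin, stood at 939, 1358 and 1761 CPM in rich cells labelled Itgb7 KO and at 921, 1016 and 1481 CPM in those of WT. Below 30% it stood at 4182, 3440 and 3840 CPM labelled Itgb7 KO and at 4552, 3745 and 4169 CPM in WT, near the 2443 to 4228 CPM of goblet barcodes. Tff3, the trefoil peptide of mucus, and Agr2, the mucin chaperone, were likewise lower in the rich cells of every library. Spink4, a small protease inhibitor, differed by replicate: it stood at 22902 and 17071 CPM in the rich cells of replicate 1 labelled Itgb7 KO and WT, but at 142976 and 182485 CPM in replicates 2 and 3 labelled Itgb7 KO and 77178 and 91817 CPM in those of WT. Below 30% it stood at 68060, 117128 and 95541 CPM labelled Itgb7 KO and at 82610, 81334 and 86529 CPM in WT. Goblet barcodes held 22371 to 37114 CPM of Spink4. Spink4 is 1 of the 14 goblet markers. It made up 142976 of 177184 CPM of their sum in rich cells of Itgb7 KO replicate 2. In replicate 3 it made up 182485 of 226109 CPM. The higher sum in rich cells of Itgb7 KO replicate 3 thus came with Spink4, while Muc2, Tff3 and Agr2 were lower there. Mmp7 stood at 2463, 5582 and 6021 CPM in rich cells labelled Itgb7 KO and at 2567, 4065 and 5166 CPM in those of WT, against 3443, 3569 and 2702 CPM below 30% labelled Itgb7 KO and 3552, 3361 and 2390 CPM in WT. On this scale, Mmp7 was lower in the rich cells of replicate 1 and higher in those of the other 4 libraries. The scale kept the cryptdin-like genes, which took 493193 and 496974 CPM in rich cells of replicate 1 labelled Itgb7 KO and WT. Below 30% they took 98068 and 130632 CPM in these libraries. A lower Mmp7 level in these rich cells can thus not be told apart from the larger cryptdin-like share. In both ranges Mmp7 lay above the 388 to 517 CPM of goblet barcodes. Clca1, Zg16 and Fcgbp were lower in rich cells than in goblet barcodes of every library.

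**Figure D4:**
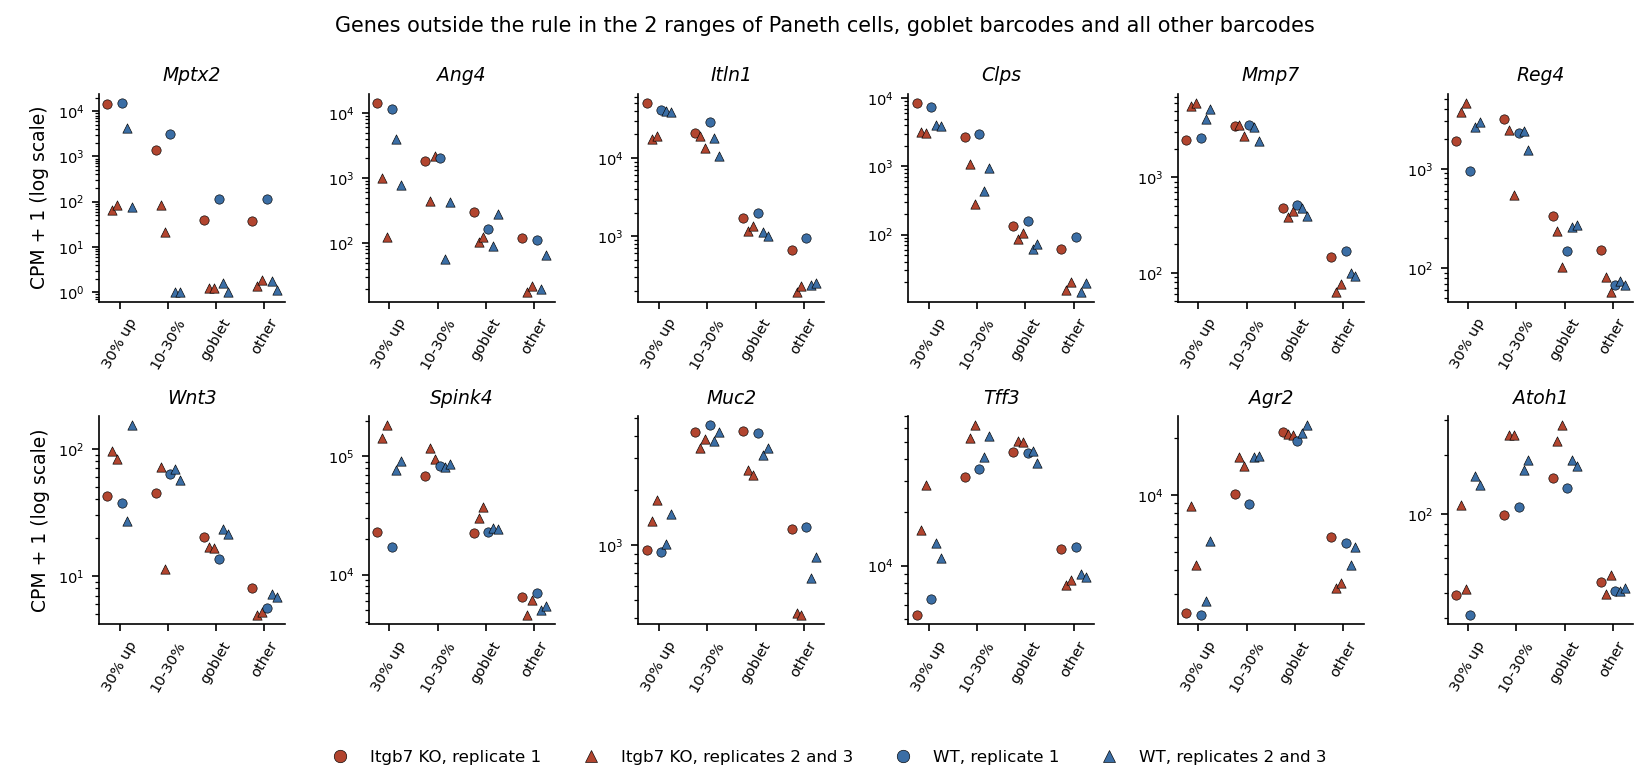
Each point is 1 library: CPM + 1 of UMIs outside the rule genes, on log axes, in Paneth cells at 30% or more and at 10% to under 30%, in goblet barcodes and in all other barcodes. Mptx2 separates the rich cells of replicate 1 (circles, 14348 and 15164 CPM) from those of most other libraries (triangles), Mmp7 and Itln1 are above goblet barcodes in both ranges, and Muc2, Tff3 and Agr2 are lower in the rich cells.

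Cells next to the 10% threshold carried both Paneth and goblet transcripts on either side of it. The 32 Paneth cells with 10% to under 12% held 1964 CPM of Mmp7, 11242 CPM of Itln1, 66077 CPM of Spink4, 5317 CPM of Muc2 and 25.4 CPM of the proliferation marker Mki67, and the 42 other barcodes with 8% to under 10% held 1954, 9273, 70532, 5373 and 24.9 CPM. The cryptdin-like genes differed more across the threshold, with 2602 CPM of Gm15284 and 1575 CPM of AY761184 inside and 1960 and 976 CPM outside. The enterocyte gene Fabp1 stood at 173 CPM inside and 78.6 CPM outside, on 68 and 41 UMIs.

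The libraries labelled Itgb7 KO were compared with WT on Paneth cell UMIs summed per library, and levels here are in CPM of all Paneth cell UMIs. Of 2796 genes that passed the filter on low counts, 0 were called at an adjusted p of 0.05 (0.0%; edgeR quasi-likelihood test, Benjamini-Hochberg adjustment), with 18 (0.644%) at an unadjusted p under 0.05. Blocking on replicate numbers also gave 0 calls (107 genes, 3.83%, at an unadjusted p under 0.05). DESeq2 called 1 gene, Retnlb (0.0358%; 0.572% at an unadjusted p under 0.05), and the libraries' serial group as a block gave 1, Klf2 (0.0358%). Which libraries share a serial group is not set out here, so little weight can be placed on the Klf2 call. In simulated counts, the test found 26.5% of 2-fold, 96.5% of 4-fold and 99.5% of 8-fold changes, so 2-fold changes would mostly have been missed at this spread. The simulation gave all libraries the same mean and a spread set by the trend over genes, so it held no replicate 1 effect. It does not cover genes that followed replicate 1, such as Gm15284 and Mptx2, whose SE was 1.92 and 2.99 log2. For such genes, 4-fold changes could also have been missed. The 2 groups did not overlap for 9 genes with Itgb7 KO above WT (0.322%) and for 11 below (0.393%).

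Levels of the rule's own genes are given as a description, since their sum chose the cells. Defa24 stood at 174409, 149803 and 152714 CPM in replicates 1, 2 and 3 labelled Itgb7 KO and at 173485, 158540 and 138456 CPM in WT. Lyz1 stood at 36990, 14165 and 4724 CPM labelled Itgb7 KO and at 31785, 20310 and 16481 CPM in WT. The groups overlapped for both. The rule used the sum of Lyz1 and Defa UMIs and not their ratio, which was tested. The ratio still varied with the share that chose the cells. In Itgb7 KO replicate 1, the median Lyz1 part of these UMIs was 2.22% in cells at 10% to 20% and 8.93% at 40% or more. In WT replicate 1 it was 3.33% and 8.11%. The tested value therefore also carries the mix of cells that the rule let in. Per 100 Defa UMIs, Lyz1 had 9.59, 5.94 and 2.15 UMIs labelled Itgb7 KO and 8.45, 7.51 and 7.41 in WT, a log2 difference of means of -0.65 (exact 2-sided permutation test, p = 0.5). The 3 values labelled Itgb7 KO spread widely around the close WT values. Together, Defa genes and Lyz1 took 42.3%, 25.3% and 22.4% of Paneth cell UMIs labelled Itgb7 KO and 40.8%, 29.1% and 23.9% in WT (difference -1.28 percentage points, given without a test because the rule chose cells by this share), and its direction turned in several alternatives.

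Cryptdin-like genes lay lower in libraries labelled Itgb7 KO without passing the test. Gm15284 stood at 71608, 9466 and 865 CPM labelled Itgb7 KO and at 79352, 27424 and 4351 CPM in WT, lower within each replicate number, while the groups overlapped because replicate 1 was high in both. Its log2 fold change was -0.33 ± 1.92 (SE) without the block and -1.40 ± 0.41 (SE) when blocked on replicate number (edgeR, adjusted p = 1.0 and 0.723). In replicates 2 and 3, Gm15284 had 4668 and 134 UMIs labelled Itgb7 KO and 9205 and 1962 in WT. These libraries held 10 and 5 rich cells labelled Itgb7 KO and 4 and 5 in WT, and single cells carried part of the sums. The part of the mix of cells in these differences was not tested. Of 12 tested cryptdin-like genes, 1 had a positive log2 fold change (median -0.15), against 48.6% of all genes tested (median -0.01), and 0 were called. The median of these 12 was -0.57 when blocked on replicate number and -0.73 with both replicate 1 libraries left out. In the cells below 30% alone, 0 of 2523 genes were called (0.0%; 44, or 1.74%, at an unadjusted p under 0.05).

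Retnlb, a resistin-like molecule with activity against Gram-negative bacteria in mice and mainly known from goblet cells, was called in some settings and not in others. It stood at 21.5, 81.1 and 116 CPM labelled Itgb7 KO and at 9.12, 2.98 and 13.3 CPM in WT, without overlap. These levels rest on few cells: 18, 7 and 4 Paneth cells with 119, 40 and 18 UMIs labelled Itgb7 KO, and 21, 1 and 2 cells with 99, 1 and 6 UMIs in WT. Cells below 30%, the range with Muc2 near the level of goblet barcodes, held 80, 40 and 17 of these UMIs labelled Itgb7 KO. In WT they held 43, 0 and 6. Rich cells held 39, 0 and 1 labelled Itgb7 KO and 56, 1 and 0 in WT. In cells below 30% alone, the log2 fold change was 2.09 ± 0.53 (SE) in edgeR, not called. A Retnlb UMI was found in 19.6%, 18.9% and 18.2% of Paneth cells labelled Itgb7 KO and in 16.9%, 5.26% and 6.67% in WT, against 0.0994% to 2.41% of other barcodes; median UMIs were 7013 to 74932 in Paneth cells and 6103 to 22196 in other barcodes. The log2 fold change was 2.25 ± 0.48 (SE) in edgeR, not called, and 2.43 ± 0.56 (SE) in DESeq2, with an adjusted p of 0.0355. Without the 2 replicate 1 libraries edgeR called Retnlb, with a log2 fold change of 3.26 and an adjusted p of 0.0113, the single call among 2987 genes (0.0335%; 6.39% at an unadjusted p under 0.05). Without the filter on low counts it was again the single call, with an adjusted p of 0.000704 (0.007% of 14286 genes; 2.55% at an unadjusted p under 0.05). Its difference did not pass the test against the change in other barcodes (1.49 ± 0.86 log2, SE).

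Other genes lay higher in all 3 replicate numbers labelled Itgb7 KO without being called in edgeR's test without a block. Klf2, a transcription factor of the immediate-early response, stood at 30.01, 64.9 and 129 CPM labelled Itgb7 KO and at 11.4, 29.8 and 19.96 CPM in WT, a log2 fold change of 1.63 ± 0.36 (SE). It was called with the serial group as a block (edgeR, adjusted p = 0.0242), and its adjusted p ranged up to 1.0 over the alternatives. Ddit3, the stress factor CHOP of the unfolded protein response, stood at 45.4, 126 and 90.3 CPM labelled Itgb7 KO and at 21.3, 65.5 and 31.0 CPM in WT. For Ddit3 the groups overlapped. The count of genes with Itgb7 KO above WT in all 3 replicate numbers was 484 of 2796 (17.3%), so this pattern by itself sets no gene apart. Of 22 tested genes of the unfolded protein response, 15 had a positive log2 fold change (median 0.14), against 48.6% of all genes tested. Hspa5, the main chaperone of that response, stood at 256, 543 and 581 CPM labelled Itgb7 KO and 225, 536 and 406 CPM in WT.

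Antigen presentation genes lay higher in libraries labelled Itgb7 KO, also without being called. Cd74, the invariant chain of MHC class II, stood at 78.4, 183 and 123 CPM in Paneth cells labelled Itgb7 KO and at 47.0, 50.6 and 73.2 CPM in those of WT, without overlap, and the class II gene H2-Ab1 stood at 45.6, 114 and 103 CPM and at 24.1, 29.8 and 64.3 CPM. Their log2 fold changes were 1.005 ± 0.30 and 1.03 ± 0.29 (SE), neither called. Only these 2 of 10 class II genes were tested, and Ciita had no UMI. Of 12 tested genes of MHC class I and the immunoproteasome, 11 had a positive log2 fold change (median 0.37), as did 5 of 6 interferon response genes (median 0.72). Over all genes tested the share was 48.6% (median -0.01). With both replicate 1 libraries left out, 10 of 12 class I genes had a positive value (median 0.23), against 2 of 6 interferon response genes (median -0.06), so the direction of the interferon list turned. The share over all genes tested was then 48.7%. Of that list, Ifi27l2b stood at 185, 318 and 426 CPM labelled Itgb7 KO and 71.5, 110 and 310 CPM in WT. Cd74 also lay higher outside the Paneth cells and stood at 619, 574 and 552 CPM in other barcodes labelled Itgb7 KO and at 284, 47.0 and 173 CPM in those of WT. The Paneth change minus that of other barcodes was -0.79 ± 0.44 log2 for Cd74 and -0.24 ± 0.40 log2 for H2-Ab1 (SE; edgeR interaction, not called), so no change particular to Paneth cells was shown.

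**Figure D5:**
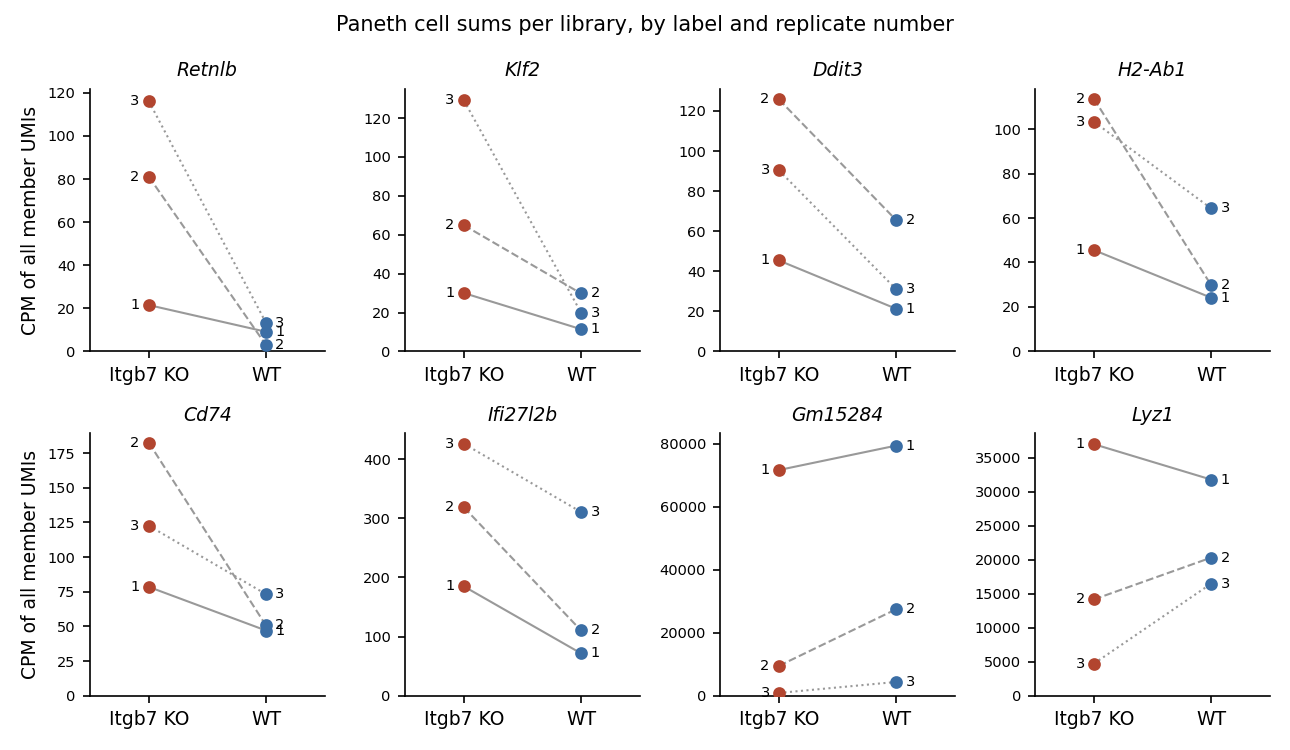
CPM of all Paneth cell UMIs in libraries labelled Itgb7 KO (left of each panel) and WT (right), with grey lines joining libraries of the same replicate number. Retnlb, Klf2 and Cd74 lie above WT without overlap, Ddit3, H2-Ab1 and Ifi27l2b lie above within each number, and Gm15284 and Lyz1 follow the replicate number more than the label.

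The remaining lists showed no called gene in either direction. Over all genes tested, 48.6% had a positive log2 fold change, and a count near that share says nothing particular about its list. Positive log2 fold changes were found for 8 of 15 tested Paneth markers outside the rule, 11 of 14 goblet markers, 11 of 16 immediate-early and heat shock genes, 15 of 25 genes of granules and secretion, 8 of 13 secretory lineage regulators and 3 of 5 niche signals. They were found for 3 of 10 autophagy and Crohn disease genes, 3 of 10 glycolysis genes, 0 of 6 genes of zinc and metal handling and 3 of 8 integrin and cadherin genes. They were found for 6 of 13 other antimicrobial products, 3 of 5 genes of the Wnt pathway, 6 of 12 enterocyte, 2 of 3 stem, 2 of 7 proliferation and 2 of 4 enteroendocrine markers, and no tuft, T cell, B cell, myeloid or stroma marker passed the filter on low counts. Wnt3 stood at 24.2, 58.8 and 19.4 CPM labelled Itgb7 KO and at 23.4, 38.7 and 62.1 CPM in WT, and Cdh1, the E-cadherin that αEβ7 binds, stood at 55.9, 73.0 and 96.8 CPM labelled Itgb7 KO and at 53.5, 53.6 and 120 CPM in WT, with groups that overlapped for both. Among abundant genes without overlap between the groups, Cps1 lay higher and Mrpl20, Csrp2, Prelid1, Gpx4 and Hint2 lay lower labelled Itgb7 KO, with log2 fold changes between -0.48 and 0.27, all smaller than the 2-fold change the test could seldom find.

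The difference between libraries labelled Itgb7 KO and WT was then set against the same difference in other barcodes of each library. Of 2785 genes, 0 differed between Paneth cells and the rest (0.0%; edgeR interaction test, Benjamini-Hochberg adjustment; 13 genes, or 0.467%, at an unadjusted p under 0.05). Blocked on replicate number, 5 genes (0.18%) were called, with 4.42% at an unadjusted p under 0.05: Guca2a, Tmsb10 and the cryptdin-like Gm7861 with a positive difference, and the hormone genes Cck and Gip with a negative one. These 5 were called under that fit alone and were chosen after their values were seen.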

How the data were processed

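Epithelial cells of the mouse small intestine were profiled with 10x 3' libraries, 3 labelled Itgb7 KO and 3 WT. The authors deposited raw UMI counts per gene and barcode. The submitters' processing notes name bcl2fastq 2.17.1.14, Cell Ranger 2.1.1, Seurat and the mm10 build; the filters behind the deposited barcodes are not given in the sources used here. Of 26153 barcodes, 108 failed the filters (3 on genes, 107 on mitochondrial UMIs). Paneth cell counts were summed per library, since cells are not replicates, with 154963 to 10850643 UMIs per library behind each value. Sums were tested with edgeR 4.0.16 (TMM, quasi-likelihood test, R 4.3.3), with DESeq2 1.42.0 as an alternative. Single values were tested with exact 2-sided permutation over libraries. Doublets were scored with Scrublet (scanpy 1.11.5) and kept. Its automatic setting marked under 0.5% of barcodes in 5 of 6 libraries and was not relied on, and a removal of the highest scores, scaled to library size, took 977 barcodes. Promoter and gene annotation came from RefSeq (GRCm38.p6) and GENCODE M21, where 27645 of 27998 gene IDs of the files matched. Intervals and limits from a count of 0 cover counting error only.

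The replicate numbers come from the labels. Same-numbered libraries deviated together from their group means (r = 0.784, 0.165 and 0.343 over 2796 genes), so the number was taken to pair libraries, and the unpaired fit remained the main one. Different-numbered libraries also deviated together (r = 0.385 for Itgb7 KO 3 with WT 2 and 0.240 for Itgb7 KO 2 with WT 3), so the deviations set apart replicate 1 and do not tell numbers 2 and 3 from each other. Members and gene lists were chosen with earlier results of these data known. Genes were named when they belonged to the rule or the cryptdin-like genes, were among the 15 highest or 6 lowest against other barcodes, differed without overlap between genotypes at 50 CPM or more, or led a list; others named for their values were chosen after those were seen.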

Additional observations from a re-analysis of the deposited data

Results flagged for a closer look

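With the replicate number as a block, 5 genes differed in the change between libraries labelled Itgb7 KO and WT, set in Paneth cells against other barcodes of the same library (edgeR interaction test). None was called without the block. Gm7861, a cryptdin-like gene, had a difference of 0.74 ± 0.05 log2 (SE), with 26068, 17224 and 10802 CPM in Paneth cells labelled Itgb7 KO and 29305, 16552 and 10138 CPM in those of WT; in other barcodes it stood at 85.2, 8.24 and 6.61 CPM labelled Itgb7 KO and at 168, 12.4 and 10.6 CPM in WT. Gm7861 levels in Paneth cells overlapped between the groups, so its contrast also carries the difference in other barcodes. The part of free RNA in those traces was not tested. Gm7861 had 5.98% unique windows, so its counts may be split between copies. Guca2a, the gut peptide guanylin, had a difference of 0.49 ± 0.07 log2 and Tmsb10, an actin-binding thymosin, one of 0.35 ± 0.07 log2 (SE). The hormone gene Cck had a difference of -1.48 ± 0.23 log2 and Gip one of -1.95 ± 0.25 log2 (SE). In Paneth cells Cck rested on 159, 12 and 6 UMIs labelled Itgb7 KO and on 212, 2 and 14 UMIs in WT. In other barcodes Cck stood at 189, 306 and 343 CPM labelled Itgb7 KO and at 40.4, 69.1 and 205 CPM in WT, so the contrast also carries a difference among other cells.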

How the results depend on the processing

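The Paneth share of kept barcodes, -0.336 percentage points for libraries labelled Itgb7 KO minus WT, became 0.0836 without both replicate 1 libraries and ranged from -1.25 to 0.994 with single libraries left out. The Defa and Lyz1 share of Paneth cell UMIs became 0.657 percentage points with a 5% threshold and 1.04 with a matched UMI minimum, and ranged from -7.42 to 3.50 with single libraries left out. The log2 difference of Lyz1 per 100 Defa UMIs ranged from -1.12 to -0.0433 on leaving out single libraries. The count of genes called was 2 with the matched UMI minimum (Apol9a and Grm4, 4 libraries), and 1 each without both replicate 1 libraries, in DESeq2, without the filter on low counts (Retnlb each time) and with the libraries' serial group as a block (Klf2). For the difference from other barcodes it was 1 without the filter (Nts), 5 with the replicate block, and 0 to 1 with single libraries left out (Gm15293 without WT replicate 1). The replicate block changed no other call; within-number permutation gave p = 0.75 for the Paneth share and 0.5 for Lyz1 per 100 Defa UMIs (exact, smallest 0.25). Of 314 values of 15 named genes under alternatives, 303 kept direction and side, 4 passed the threshold and 7 turned: Cps1 to -0.20 without Itgb7 KO replicate 1, and Prelid1 to 0.017, Gpx4 to 0.21 and Hint2 to 0.16 without WT replicate 1. With single libraries left out, Cps1 ranged from -0.20 to 1.03, Prelid1 from -0.94 to 0.017, Gpx4 from -0.92 to 0.21 and Hint2 from -0.80 to 0.16. Gpx4 also turned in cells below 30%, to 0.035 in edgeR, 0.012 with the block and 0.026 in DESeq2. The causes were not tested. Fits at 20% or with the matched minimum used 4 libraries, since 2 held under 10 Paneth cells.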
